A study of Homo sapiens with 8 samples.

Results

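Axon guidance ligands and receptors were described here in the human neuroblastoma cell line SK-N-BE(2), with and without knockdown of METTL14. The members were taken from the gene symbols of the count table, as every semaphorin of classes 3 to 7, plexin, neuropilin, ephrin, Eph receptor, Slit, Robo, netrin, netrin-G, UNC5 gene and DCC that the table lists. This gave 71 of 56303 genes, with 37 ligands and 34 receptors. The rule used symbols and no measured value, but the set of families was chosen with earlier results of these data known. By family they were 20 semaphorins, 9 plexins, 2 neuropilins, 8 ephrins, 14 Eph receptors, 3 Slits, 4 Robos, 6 netrins and netrin-Gs, and 5 genes of the DCC and UNC5 group.

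MeRIP-seq measures N6-methyladenosine (m6A) in messenger RNA by pulling down RNA fragments with an antibody against m6A (the IP) and sequencing them beside fragments kept aside before the pull-down (the input). METTL14 is a subunit of the enzyme complex that writes m6A. The control arm carried a non-targeting shRNA (sh-NC) and the other arm an shRNA against METTL14 (shMETTL14), each delivered by a pLKO.1 lentiviral vector into cells that were selected and kept as a stable line. Each arm had 2 numbered replicates, each with 1 input and 1 IP library, 8 libraries in all. The replicates are called cultures here, though the labels give only their numbers. Whether both shMETTL14 cultures carry the same shRNA is not stated in the labels. Nothing in the labels says how the cultures were set up, so p-values measure only the spread between these samples, which may be technical.

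Axon guidance molecules steer growing neurites and migrating cells of the neural crest, the embryonic source of the sympathetic lineage from which neuroblastoma arises. Semaphorins act through plexins, and the secreted class 3 semaphorins use neuropilins as coreceptors. Ephrins and Eph receptors both sit on cell surfaces and signal in both directions. Slits signal through Robo receptors, and netrins attract through DCC or repel through UNC5 receptors.

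Promoter sequence is shown for 4 members, the strongest rises (EFNB2 and SEMA6C) and the strongest falls (SEMA5A and PLXND1) in input RNA among members with a mean input count of at least 100, so that the letters can be read beside the changes given further on. The sequences are those of RefSeq on GRCh38.p14, from 250 bases before to 50 bases after the annotated start, on the strand of the gene, and 60 of 71 members had an entry. Capitals mark the GC box GGGCGG and the TATA box TATAAA, each on either strand. EFNB2 lies at chr13:106535613-106535912, SEMA6C at chr1:151146582-151146881, SEMA5A at chr5:9546026-9546325 and PLXND1 at chr3:129606627-129606926, all on the minus strand. For EFNB2 the gene of the count table starts at position 106535114 and the RefSeq gene at 106535662, so the window lies upstream of the table's start.
EFNB2: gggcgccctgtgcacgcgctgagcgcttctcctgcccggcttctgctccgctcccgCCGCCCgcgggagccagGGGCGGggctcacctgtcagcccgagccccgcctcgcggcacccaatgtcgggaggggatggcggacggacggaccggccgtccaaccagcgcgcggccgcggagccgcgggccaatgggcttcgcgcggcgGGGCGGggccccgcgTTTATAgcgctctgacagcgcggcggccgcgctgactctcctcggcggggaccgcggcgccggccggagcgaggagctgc
SEMA6C: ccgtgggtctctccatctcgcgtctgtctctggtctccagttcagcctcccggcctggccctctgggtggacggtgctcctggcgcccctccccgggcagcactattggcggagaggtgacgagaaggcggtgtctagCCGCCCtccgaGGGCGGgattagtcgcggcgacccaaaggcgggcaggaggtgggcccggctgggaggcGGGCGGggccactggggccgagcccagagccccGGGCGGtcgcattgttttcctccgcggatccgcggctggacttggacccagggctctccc
SEMA5A: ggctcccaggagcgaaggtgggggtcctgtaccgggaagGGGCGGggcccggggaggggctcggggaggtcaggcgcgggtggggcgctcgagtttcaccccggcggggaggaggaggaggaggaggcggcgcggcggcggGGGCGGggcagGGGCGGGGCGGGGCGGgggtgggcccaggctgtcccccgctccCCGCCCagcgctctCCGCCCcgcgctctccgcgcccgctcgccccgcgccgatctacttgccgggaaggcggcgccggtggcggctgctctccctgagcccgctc
PLXND1: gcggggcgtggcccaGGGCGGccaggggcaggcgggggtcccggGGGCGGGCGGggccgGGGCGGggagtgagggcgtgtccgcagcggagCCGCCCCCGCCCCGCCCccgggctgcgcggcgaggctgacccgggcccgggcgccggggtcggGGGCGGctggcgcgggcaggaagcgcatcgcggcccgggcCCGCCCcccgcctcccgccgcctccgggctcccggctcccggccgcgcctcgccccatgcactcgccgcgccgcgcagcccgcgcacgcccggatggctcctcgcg
The window of EFNB2 held 3 GC boxes and 1 TATA box, and those of SEMA6C, SEMA5A and PLXND1 held 4, 7 and 9 GC boxes, some of them overlapping, and no TATA box. None of these 4 windows held the E-box CACGTG, a motif bound by MYC family proteins, on either strand. A member with several annotated starts counts once for each start below. Over 94 starts of the 60 members, 72.3% held a GC box, against 45.0% of 35116 RefSeq starts. The E-box was found at 4.26% of the members' starts and 7.26% of all starts, and the TATA box at 3.19% and 11.5%. These are matches of letters, and binding was not measured.

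Total counts ran from 32027379 to 47205265 per library. Between 82.2% and 83.5% of genes with 1 to 10 counts had an even count, so that both mates of a read pair were mostly counted. METTL14 input RNA was 51.6 and 50.9 CPM (counts scaled to a common library size) in sh-NC and 14.3 and 15.3 CPM in shMETTL14, a fall of 3.45-fold. All 12 markers of adrenergic neuroblastoma were above 1 CPM, and their summed level was 6664 to 6904 CPM in sh-NC and 7189 to 7264 CPM in shMETTL14, most of it from MYCN (4405 to 4636 CPM over the 4 inputs). Single markers differed more, with TH at 34.0 to 37.2 CPM in sh-NC and 72.2 to 73.4 CPM in shMETTL14, GATA2 at 164 CPM against 278 to 283 CPM, and CHGA at 315 to 319.9 CPM against 472 to 477 CPM. All 6 fibroblast markers were also above 1 CPM, with sums of 317 to 318 CPM in sh-NC and 343 to 344 CPM in shMETTL14, but single markers differed in direction. DCN was 16.4 to 17.4 CPM in sh-NC and 41.6 to 43.1 CPM in shMETTL14, COL1A1 85.7 to 92.2 CPM against 54.5 to 57.5 CPM, and PDGFRA 9.25 to 10.1 CPM against 8.70 to 8.96 CPM. Of the Schwann cell markers 2 of 5 passed 1 CPM and SOX10 stayed at or under 0.379 CPM, and of the blood and endothelial markers 1 of 4 passed (CD68, 12.9 to 20.2 CPM). The part of these markers in the results on the members was not tested.

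The receptors for netrin, Slit and semaphorin signals were the most abundant members. Levels are given as input CPM per kilobase of exon, so that genes can be compared, and genes were ranked by the mean over the 4 input libraries. Of the 71 members, 7 stood at 10 or more, 36 between 1 and 10, and 26 below 1, while DCC and EPHA3 had no count in any of the 8 libraries. DCC, the attractive netrin receptor, was therefore absent from the counts, while its repulsive counterparts UNC5B and UNC5C were at 30.1 ± 1.05 and 21.9 ± 0.606 in sh-NC (SD, n = 2).

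PLXNB2, a receptor for class 4 semaphorins, stood at 30.1 ± 1.73 in sh-NC, within the spread of UNC5B. ROBO1 and its ligand SLIT3 followed at 20.9 ± 0.824 and 20.8 ± 0.213, also within each other's spread. NRP1 was at 15.4 ± 0.525 and PLXNA4 at 10.4 ± 0.489. The group at 10 or more thus held 6 receptors and 1 ligand.

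Within each family the members spanned wide ranges of abundance. The leading semaphorins over all inputs were SEMA3C (6.82 ± 0.0762 in sh-NC) and SEMA3F (7.002 ± 0.0592), both secreted. In sh-NC alone SEMA6D stood higher than both, at 7.31 ± 0.224. Over all inputs SEMA6D (6.31) and SEMA4C (6.30) lay close behind SEMA3F (6.51). SEMA6B had 2 counts in 1 input library and none in the other inputs. Among ephrins, EFNB1 led at 6.83 ± 0.0373 and EFNA1 followed at 3.19 ± 0.171. The leading Eph receptors were EPHB4 (5.98 ± 0.137) and EPHA1 (4.003 ± 0.429), while EPHA4, EPHA5, EPHA6, EPHA8, EPHA10, EPHB1 and EPHB6 were all below 0.2 in each arm. Among the netrins only the membrane-anchored NTNG1 passed 1 (3.39 ± 0.336), and the secreted NTN3 was next at 0.321 ± 0.00174. SLIT2 and ROBO3 were at 0.357 ± 0.135 and 1.56 ± 0.108.

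**Figure D1:**
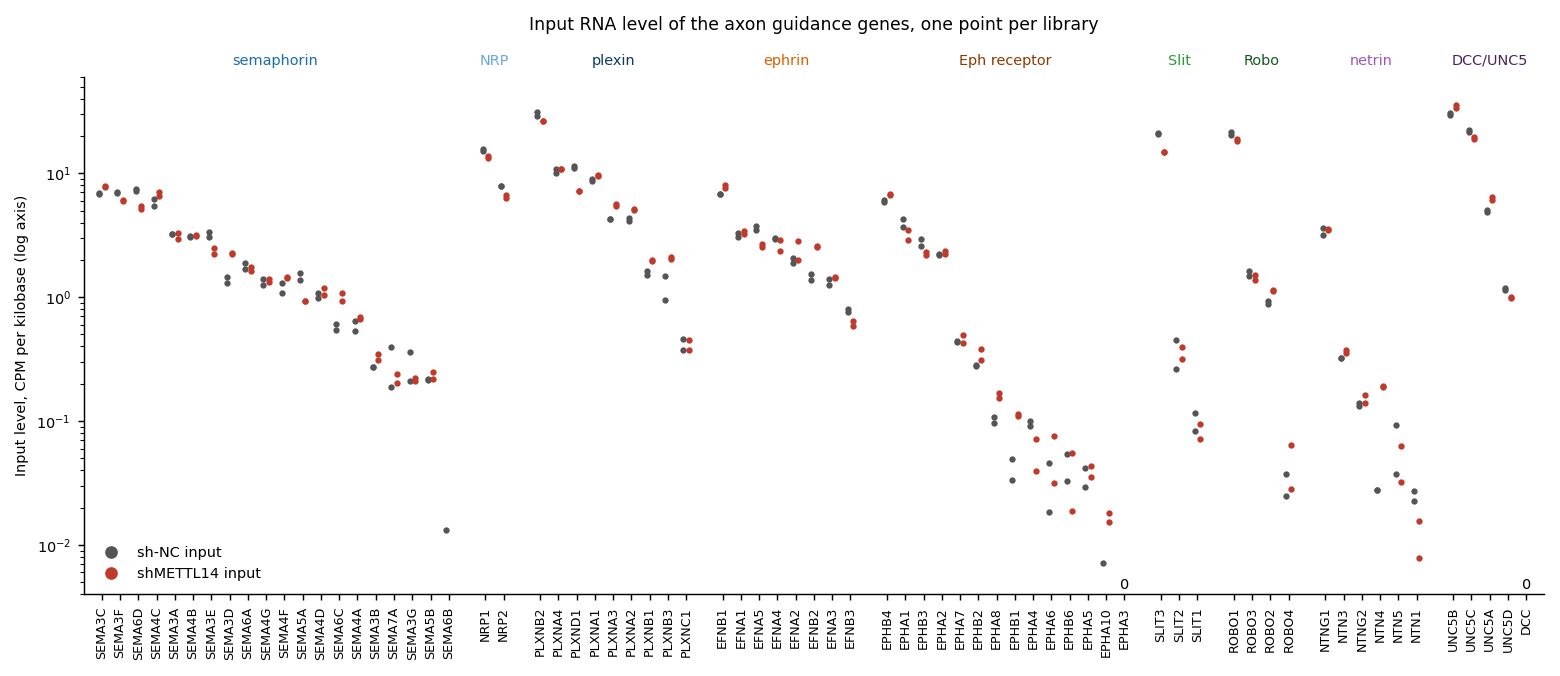
Input RNA level of all 71 members in CPM per kilobase of exon (vertical axis, log scale), by family, with 1 point per input library (grey sh-NC, red shMETTL14). Libraries with no count have no point, and DCC and EPHA3 are marked 0; UNC5B, PLXNB2, UNC5C, ROBO1, SLIT3, NRP1 and PLXNA4 form the top group, and levels span from about 30.1 for UNC5B in sh-NC to 0.0279 for NTN4 in sh-NC and lower.

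The RNA level of the members after METTL14 knockdown was compared in the 4 input libraries. A filter on low counts left 64 members, dropping DCC, EPHA3, NTN1, NTN5, ROBO4, EPHA10 and SEMA6B. Of these 64, 16 rose and 14 fell at an adjusted p below 0.05, 25% and 21.9%, where 11.7% of all tested genes were called higher and 12.3% lower. The members tested also had more counts (a median mean input count of 435 against 317 over all genes tested). The median log2 change over the 64 members was 0.06, beside 0.00 over all genes. Only NTN4 and EPHB1 rose by 2-fold or more and no member fell by as much. Called genes were picked from these same 4 libraries, so separate arms reported for them below add no support. Members not called, such as PLXNA1, SEMA4B and EPHA2, had separate arms too. In bulk RNA, fewer cells of a type and less RNA per cell cannot be told apart. When shMETTL14 replicate 1 was left out, 8 members rose and 9 fell, and without shMETTL14 replicate 2 the counts were 3 and 7, where the lone shMETTL14 culture is assumed to vary like the sh-NC cultures. The 10 genes called without shMETTL14 replicate 2 were EFNB2, SEMA3D and PLXNA3 among the rises and SEMA5A, PLXND1, SLIT3, SEMA6D, EFNA5, NRP2 and UNC5C among the falls. With no filter beyond 1 read, 13 of the 30 calls were kept. The shares of all genes called in these other fits are not given, so the drops cannot be read as particular to the members.

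**Figure D2:**
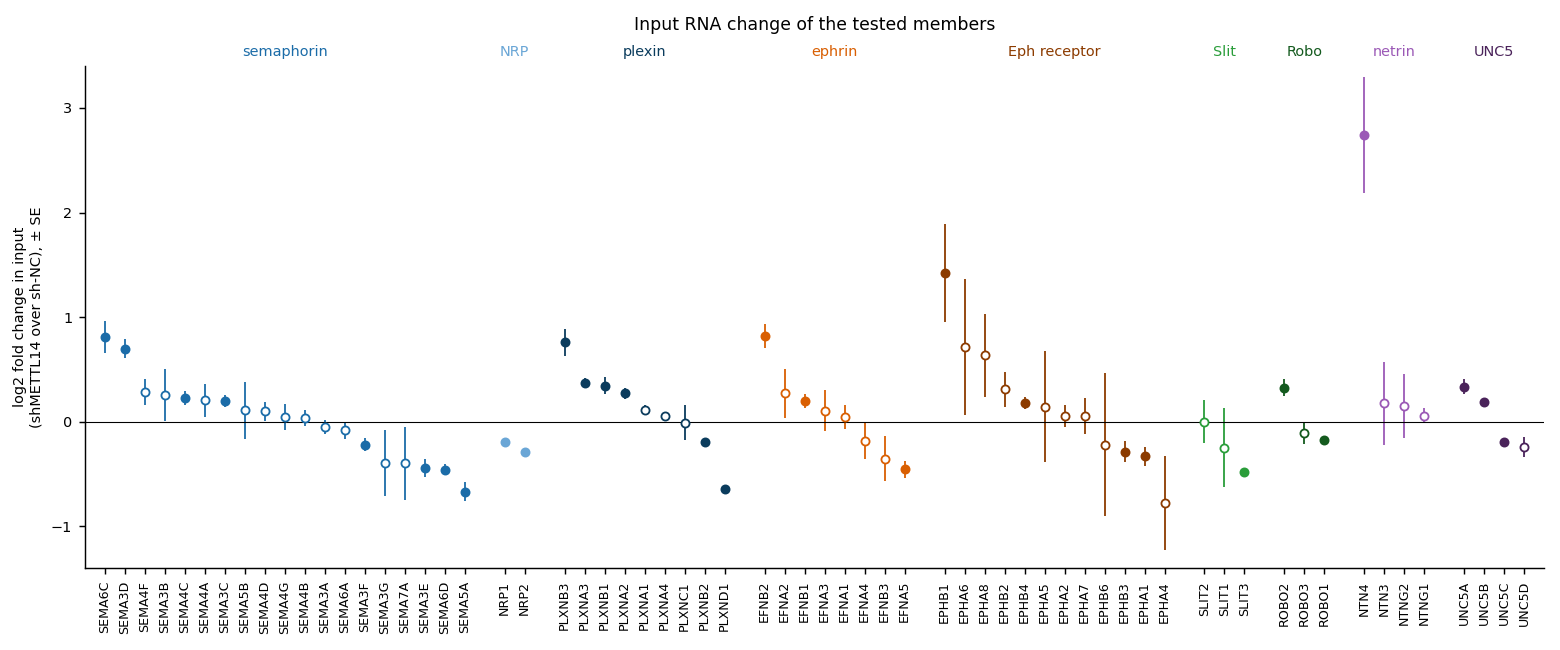
Log2 fold change of input RNA (shMETTL14 over sh-NC, vertical axis) with its standard error for the 64 members tested, grouped by family, where filled points have an adjusted p below 0.05. Called changes run both ways in semaphorins, plexins, ephrins and Eph receptors, both neuropilins lie below 0, and NTN4 at 2.74 and EPHB1 at 1.42 are the only called values above 1.

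Among the semaphorin ligands, 4 of 19 rose and 4 fell. SEMA3D, a secreted repellent, was 11.8 and 10.6 CPM in sh-NC and 18.2 and 18.0 CPM in shMETTL14. Its arms did not overlap, and it rose by 0.70 ± 0.09 on the log2 scale (SE; adjusted p = 2.69e-06, edgeR quasi-likelihood test). SEMA6C, a transmembrane semaphorin, was 3.15 and 3.498 CPM in sh-NC and 5.41 and 6.23 CPM in shMETTL14, a rise of 0.81 ± 0.15 (adjusted p = 0.000321). The spread between its cultures was smaller than the gap between the arms. SEMA3C and SEMA4C rose less, by 0.20 and 0.23.

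SEMA5A, which carries thrombospondin repeats and is a ligand of PLXNB3, had the strongest fall among the members called. It was 18.8 and 16.8 CPM in sh-NC and 11.2 CPM in each shMETTL14 culture, and fell by 0.67 on the log2 scale (SE 0.09, adjusted p = 5.73e-06). SEMA6D, a ligand of plexin A receptors, fell by 0.46, from 63.9 and 61.2 CPM to 46.8 and 44.2 CPM. SEMA3E, which binds PLXND1 without a neuropilin, fell by 0.44, from 22.5 and 20.6 CPM to 16.7 and 15.01 CPM. SEMA3F, a ligand that prefers NRP2, fell by 0.22. The arms of each of these 4 genes were separate. SEMA3A, the classical collapsing factor of growth cones, was 30.2 and 30.4 CPM against 27.8 and 30.6 CPM, with overlapping arms and an adjusted p of 0.661.

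The semaphorin receptors also moved in both directions. Both neuropilins fell. NRP1, coreceptor of SEMA3A, was 181 and 173 CPM in sh-NC and 153 and 157 CPM in shMETTL14, a fall of 0.19 (SE 0.04, adjusted p = 0.000573). NRP2 was 109.5 and 110.3 CPM against 92.2 and 87.5 CPM, a fall of 0.29 (SE 0.04, adjusted p = 1.55e-05). Every shMETTL14 culture was below every sh-NC culture for both genes. NRP1 overlaps the antisense gene RP11-342D11.2. The mean read density of that gene over its whole length, times the shared bases, equals 14.1% of NRP1's counts. Reads on the shared bases themselves were not counted. The change of RP11-342D11.2 is not given here, so the value of NRP1 is uncertain. NRP1's log2 change ran from -0.23 to -0.16 as single cultures were left out. It lost its call with no filter beyond 1 read.

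Of the 9 plexins 4 rose, 2 fell and 3 were not called. PLXND1, the receptor of SEMA3E, was 108 and 111 CPM in sh-NC and 69.6 and 70.5 CPM in shMETTL14. It fell by 0.64 (SE 0.04, adjusted p = 6.98e-11), so that this receptor and its ligand SEMA3E were both lower. PLXNB2, the most abundant plexin, fell by 0.19, from 209 and 227 CPM to 191 and 192 CPM.

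The 4 plexins that rose were PLXNB3, PLXNA3, PLXNB1 and PLXNA2. PLXNA3, which transmits class 3 semaphorin signals, was 50.0 CPM in both sh-NC cultures and 65.8 and 63.7 CPM in shMETTL14, a rise of 0.37 ± 0.05 (adjusted p = 3.97e-06). PLXNB1, a receptor of SEMA4D, rose by 0.34 and PLXNA2 by 0.27. PLXNB3, the receptor of SEMA5A, was 6.70 and 10.4 CPM in sh-NC and 14.9 and 14.2 CPM in shMETTL14, a rise of 0.76 ± 0.13. Its sh-NC cultures differed widely, its log2 change ran from 0.48 to 1.11 as single cultures were left out, and DESeq2 did not call it. It also shares 1432 exonic bases with SRPK3. The mean read density of SRPK3, times those bases, equals 15.2% of PLXNB3's counts. SRPK3 itself rose by 0.59, so the value of PLXNB3 is uncertain. PLXNA1 at 0.12 (adjusted p = 0.0511) and PLXNA4 at 0.06 (adjusted p = 0.334) were not called.

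Of the 8 ephrins 2 rose and 1 fell, and of the 12 Eph receptors tested 2 rose and 2 fell. EFNB2, a transmembrane ligand of EPHB4 that is also known from arterial endothelium, was 6.85 and 6.16 CPM in sh-NC and 11.3 and 11.6 CPM in shMETTL14. This was a rise of 0.82 ± 0.11 (adjusted p = 5.43e-06), with no overlap of the arms. EPHB4, its receptor, was 37.8 and 39.1 CPM against 43.3 and 43.6 CPM, a smaller rise of 0.18 ± 0.06 (adjusted p = 0.0245). EFNB1 rose by 0.20 (adjusted p = 0.0423). EFNA5, a ligand anchored in the membrane by a lipid, fell by 0.46, from 21.4 and 19.7 CPM to 14.6 and 15.4 CPM (SE 0.08, adjusted p = 0.000181).

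EPHB1, a receptor for ephrin-B ligands, rose from a very low level. It had 8 and 12 input counts in sh-NC and 31 and 32 in shMETTL14, which gave a log2 change of 1.42 ± 0.47 (adjusted p = 0.0277). EPHB3 fell by 0.29 and EPHA1 by 0.33. EPHA1 was 17.5 and 20.4 CPM in sh-NC and 16.4 and 13.7 CPM in shMETTL14, so its arms were separate by a margin smaller than the spread within each. It overlaps ZYX on the opposite strand, whose mean read density times the 82 shared bases equals 18.0% of EPHA1's counts. ZYX fell by 0.28, and reads of an antisense partner cannot be told apart from those of the gene where counting ignores strand. DESeq2 did not call EPHB1, EPHB3, EPHB4 or EFNB1.

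In the Slit and Robo families, SLIT3 fell and its receptors ROBO1 and ROBO2 moved in opposite directions. SLIT3, a secreted ligand and the most abundant ligand of all members per kilobase, was 299 and 294 CPM in sh-NC and 212 and 213 CPM in shMETTL14. The fall was 0.48 on the log2 scale (SE 0.03, adjusted p = 1.75e-10). ROBO1 fell by 0.17, from 233 and 221 CPM to 198 and 205 CPM. ROBO2 rose by 0.33 ± 0.08, from 14.8 and 15.4 CPM to 19.1 and 18.7 CPM. The arms were separate for these 3 genes. SLIT2, at 2.53 and 4.39 CPM against 3.09 and 3.85 CPM, and ROBO3 (adjusted p = 0.514) had overlapping arms and were not called.

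Among netrins and their receptors, NTN4 had the largest rise of the members tested. NTN4, a secreted netrin related to laminin chains, had 4 input counts in each sh-NC culture and 32 in each shMETTL14 culture. With both mates of a pair mostly counted, these counts stand for fewer read pairs. The fitted log2 change was 2.74 ± 0.56 (adjusted p = 0.000602), a 6.69-fold rise from a level of 0.0279 CPM per kilobase. DESeq2 did not call it, and neither did edgeR without shMETTL14 replicate 2. NTNG1, the most abundant netrin, was 28.8 and 33.2 CPM against 32.0 and 32.6 CPM and did not pass the test (adjusted p = 0.612).

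The UNC5 receptors, which mediate repulsion by netrin and can trigger cell death when no ligand is bound, split by gene. UNC5A rose by 0.33 ± 0.07, from 21.4 and 21.9 CPM to 26.4 and 28.2 CPM (adjusted p = 0.00103). UNC5B rose by 0.19 ± 0.04, from 201 and 211 CPM to 241 and 228 CPM (adjusted p = 0.00062). UNC5C fell by 0.19, from 229 and 238 CPM to 201 and 209 CPM (SE 0.04, adjusted p = 0.000425). The arms of all 3 were separate. UNC5D was at -0.24 with an adjusted p of 0.0789.

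The 34 members that were tested in input and not called had log2 changes from -0.78 (EPHA4) to 0.72 (EPHA6), and the outermost values belonged to genes with few counts. EPHA4, a receptor for ephrins of both classes, was 0.757 and 0.694 CPM in sh-NC and 0.544 and 0.300 CPM in shMETTL14, with a standard error of 0.45 on the log2 scale. Better measured genes lay closer to 0, though some kept a distance, with EPHB2 at 0.31, SEMA4F at 0.28 and UNC5D at -0.24. Others were nearer. SEMA4B was 21.3 and 21.9 CPM against 21.9 and 22.2 CPM, and SEMA4D, the ligand of PLXNB1, was 14.0 and 15.2 CPM against 14.6 and 16.7 CPM. EPHA2 was 9.18 and 9.22 CPM against 9.81 and 9.31 CPM. SEMA4G and SLIT1 cannot be read from these counts with any certainty. The mean read density of the overlapping MRPL43, times the shared bases, equals 133% of SEMA4G's counts, and that of ARHGAP19-SLIT1 equals 53.3% of SLIT1's. These are estimates, and reads on the shared bases themselves were not counted.

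**Figure D3:**
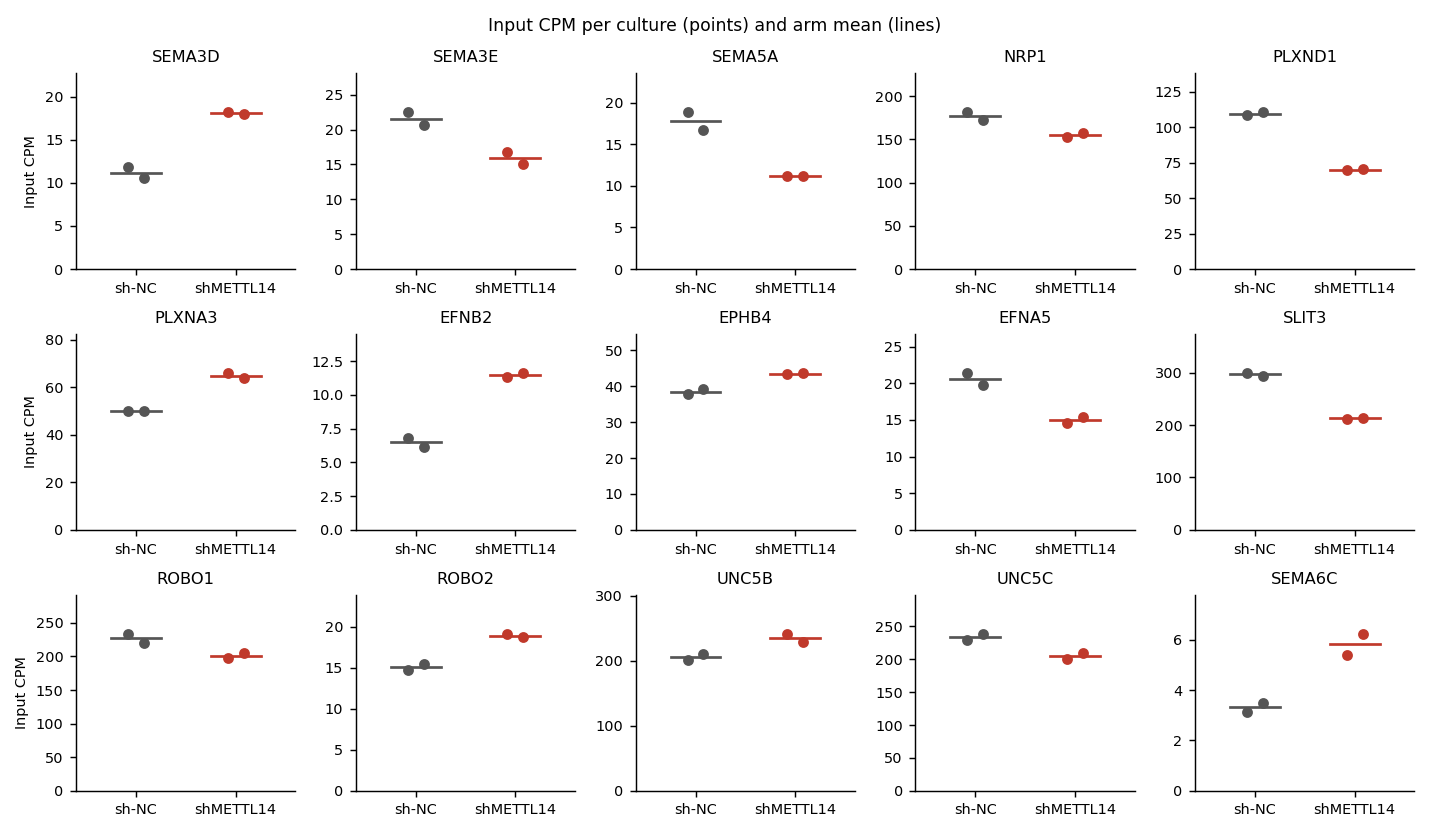
Input CPM (vertical axes, each starting at 0) of 15 members in the 2 cultures of each arm, with points for cultures and lines for arm means. All 15 were picked from the members called in these same libraries, so separate arms follow largely from that choice. The gaps are wide in EFNB2, SEMA6C, SEMA3D, SEMA5A and PLXND1. They are narrow beside the level in NRP1, ROBO1, UNC5B, UNC5C and EPHB4.

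Signalling partners of the members were read from 4 lists chosen by known role, with earlier results of these data known, 74 genes in all. Of the 68 tested in input, 18 rose and 6 fell, 26.5% and 8.82%, beside 11.7% and 12.3% of all genes. The list of semaphorin and plexin partners had 10 of 17 higher (58.8%) and none lower by edgeR or DESeq2, with 1 lower at an unadjusted p below 0.05 by edgeR, and a median log2 change of 0.14. The 10 were the collapsin response mediator proteins CRMP1 (0.33), DPYSL3 (0.13), DPYSL4 (0.35) and DPYSL5 (0.74), the kinases CDK5 (0.51), GSK3B (0.16) and FYN (0.12), the actin-oxidising enzymes MICAL1 (0.26) and MICAL3 (0.14), and the adhesion molecule L1CAM (0.33). Without shMETTL14 replicate 1, 6 of the list were called higher, and without shMETTL14 replicate 2, 4 were. DPYSL5, the largest rise of this list, was 58.2 and 61.1 CPM in sh-NC and 99.6 CPM in both shMETTL14 cultures. The list holds abundant genes, such as CRMP1 (248 CPM on average in sh-NC), DPYSL3 (233) and L1CAM (224). Small changes are more easily called in such genes, and the part of this in the share of 58.8% was not tested.

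Among 17 partners of ephrins and Eph receptors, 3 rose and 3 fell. GRIP1, a scaffold that binds ephrin-B tails, was 1.49 and 1.30 CPM in sh-NC and 0.297 and 0.550 CPM in shMETTL14, a fall of 1.71 on the log2 scale. KALRN rose by 0.52. Of 15 Slit and Robo partners the actin regulator ENAH rose (0.11) and the other 14 were not called. Of 19 netrin partners 4 rose and 3 fell. LRRC4, a ligand of netrin-G2, rose by 1.08 from 1.22 and 1.45 CPM to 3.02 and 2.63 CPM, and DSCAML1, a relative of the netrin receptor DSCAM, rose by 1.02. NEO1, a netrin receptor related to DCC, fell by 0.44.

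The antibody enrichment of the members was read as IP over input, the ratio of normalised IP to input counts of a gene in 1 culture. A ratio above 1 means more m6A-antibody signal than the average gene of that library, since libraries are scaled to each other, and a loss of m6A shared by all genes would not show. A single value covers the whole gene, so positions within it are not resolved. In sh-NC, 20 of 66 tested members were higher in the IP and 22 lower, with 29.1% and 29.8% of all tested genes called higher and lower. In shMETTL14 the counts were 18 and 24 of 66, beside 28.9% and 29.1% of all genes. The members' shares were near those of all genes, apart from the lower calls in shMETTL14 (36.4%). With libraries scaled by size only, the split was 14 against 27 (sh-NC) and 14 against 26 (shMETTL14). That scaling also moved the median log2 ratio of all genes to -0.14 (sh-NC) and -0.13 (shMETTL14). The shares of all genes called under it are not given, so this split shows no depletion particular to the members. With the main scaling, the members' median log2 ratio was -0.04 in sh-NC and -0.17 in shMETTL14, with -0.01 over all genes in each arm.

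Secreted class 3 semaphorins and neuropilins were mostly on the enriched side. Both neuropilins were higher in the IP of sh-NC, and NRP1 also in that of shMETTL14. Of 7 class 3 semaphorins, 4 were higher in the IP of sh-NC and 1 lower. SEMA3A had ratios of 1.74 and 1.69 in sh-NC against 1.78 and 1.53 in shMETTL14, a log2 of 0.78 ± 0.06 in sh-NC (adjusted p = 4.87e-16). SEMA3D, at 1.57 and 1.70 in sh-NC, and SEMA3E, at 1.20 and 1.47, were enriched as well. NRP1 had ratios of 1.36 and 1.49 in sh-NC against 1.43 and 1.29 in shMETTL14. Ratios of these genes were above 1 in each of the 4 cultures.

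Plexins lay mostly on the depleted side, with 6 of 9 lower and 2 higher in both arms. PLXNB3 had the lowest ratios of the plexins, 0.557 and 0.381 in sh-NC against 0.350 and 0.424 in shMETTL14 (log2 of -1.16 ± 0.15 in sh-NC). SRPK3, which shares exonic bases with PLXNB3, was also depleted, at a log2 of -0.86 in sh-NC and -0.97 in shMETTL14. The part of SRPK3 in the ratio of PLXNB3 was not tested. PLXNB2 was at 0.705 and 0.662 in sh-NC, and PLXND1 at 0.699 and 0.678. The 2 enriched plexins were PLXNA2, at 1.32 and 1.23, and PLXNA4, at 1.06 and 1.17. Among other semaphorins, SEMA6C was depleted (0.582 and 0.402 in sh-NC, log2 of -1.01 ± 0.21), and SEMA7A, with low counts, was at 0.730 and 0.522 without passing the test (adjusted p = 0.0788).

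All 8 ephrins differed between IP and input in each arm, 4 in each direction. Of all tested genes, 58.9% were called in sh-NC and 58.0% in shMETTL14. Fewer were called in smaller fits. Without sh-NC replicate 1, EFNA2, EFNA3, EFNA5 and EFNB1 were not called in sh-NC, and without sh-NC replicate 2, EFNA1, EFNA2 and EFNB3 were not. In shMETTL14, EFNA1, EFNA3 and EFNA4 were not called without shMETTL14 replicate 1, nor EFNA1, EFNA5 and EFNB1 without shMETTL14 replicate 2. In the full model, EFNA1, EFNA4, EFNB2 and EFNB3 were enriched and EFNA2, EFNA3, EFNA5 and EFNB1 depleted. EFNA4 had ratios of 1.63 and 1.72 in sh-NC against 1.50 and 1.29 in shMETTL14, and EFNA2 0.608 and 0.505 in sh-NC against 0.489 and 0.530 in shMETTL14. All tested genes were split about evenly as well, with 29.1% higher and 29.8% lower in sh-NC. EFNA3 shares 853 bases with an overlapping gene of the same strand, RP11-540D14.8. That gene's mean read density, times those bases, equals 51.6% of EFNA3's counts, so the value of EFNA3 is uncertain.

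EPHA1 had the lowest ratio of all tested members, 0.337 and 0.281 in sh-NC against 0.341 and 0.361 in shMETTL14 (log2 of -1.70 ± 0.11 in sh-NC, adjusted p = 9.46e-19). Its antisense neighbour ZYX was also depleted, at a log2 of -1.45 in sh-NC and -1.32 in shMETTL14, and its part in the ratio of EPHA1 was not tested. EPHB1 had ratios of 1.96 and 2.37 in sh-NC (log2 of 1.08, adjusted p = 0.0523) and 1.86 and 2.43 in shMETTL14 (log2 of 1.11, adjusted p = 0.00867). EPHA6, with few counts, ranged from 1.10 to 4.74 in sh-NC and was not called (adjusted p = 0.176).

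NTN4 had the highest fitted ratio of all tested members in sh-NC, from 4 input counts in each culture against 16 and 18 in the IP (log2 of 2.01 ± 0.65, adjusted p = 0.00704). NTN4 ran from a log2 of 1.63 to 2.39 in sh-NC as single cultures were left out. In shMETTL14 it had 32 input counts in each culture and 40 and 20 in the IP, with a log2 of 0.30 (adjusted p = 0.582). NTNG1 was enriched at higher counts, with ratios of 2.02 and 1.53 in sh-NC against 1.68 and 1.72 in shMETTL14 (log2 of 0.82 ± 0.06 in sh-NC, adjusted p = 6.69e-16). Of the 4 UNC5 receptors, 2 were lower in the IP of sh-NC and 3 in that of shMETTL14. UNC5B was at 0.558 and 0.539 in sh-NC against 0.525 and 0.549 in shMETTL14, and UNC5A at 0.589 and 0.703 in sh-NC. UNC5C stayed close to 1, at 0.965 and 0.951. ROBO1 was slightly enriched (1.06 and 1.17 in sh-NC) and SLIT3 slightly depleted (0.928 and 0.902), both past the test. With libraries scaled by size only, which moved the median log2 ratio of all genes to -0.14 in sh-NC and -0.13 in shMETTL14, EFNA1, EPHA7, NRP2, PLXNA4, ROBO1 and SLIT2 were no longer called higher in sh-NC, and SEMA4B, SEMA4G, SEMA7A, UNC5C and UNC5D were newly called lower. In shMETTL14, EFNA1, EFNA4, PLXNA4 and ROBO1 lost their call, and EPHA2 and UNC5C were newly called.

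**Figure D4:**
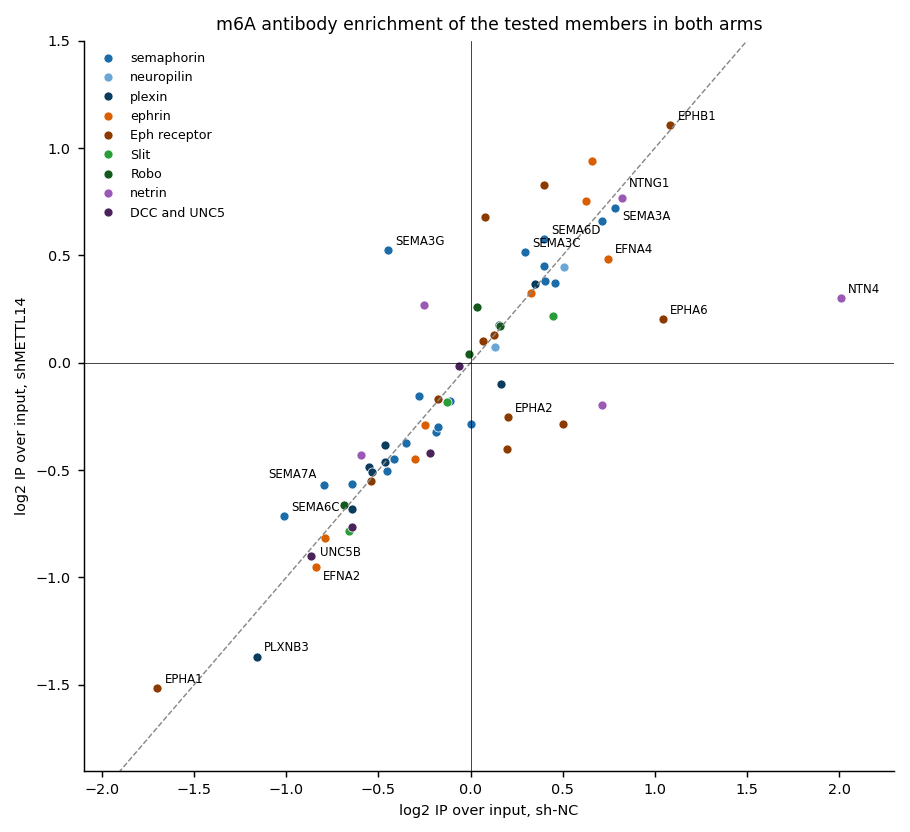
Log2 ratio of IP over input for the 66 members tested, sh-NC on the horizontal and shMETTL14 on the vertical axis, coloured by family, with the dashed line where both arms are equal. EPHA1 and PLXNB3 are lowest in both arms, SEMA3A and NTNG1 are enriched in both, and NTN4 (2.01 in sh-NC, 0.30 in shMETTL14) lies farthest below the line.

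Members that span long stretches of genome had higher ratios than members with short ones. This was read over 52 members with a mean input count of at least 50, as a description without a test, since the genes share their libraries. The division at 100000 bases was chosen after the values had been seen. The median log2 in sh-NC was 0.23 over 24 members spanning at least 100000 bases and -0.46 over 28 shorter ones. Over all 16596 genes at that count the medians were 0.07 and -0.03. Without a division, the rank correlation (Spearman) of the ratio in sh-NC with span was 0.39 over these members and 0.11 over all these genes. Span differs between the families, and span and family were not separated. In shMETTL14 the members' medians were 0.20 and -0.45. The members tested in input were also longer genes than most, with a median span of 76639 bases against 18252 and 19 exons against 7.

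The ratio of IP to input was then compared between shMETTL14 and sh-NC. This asks only whether the ratio of a whole gene changed relative to other genes. A loss shared by all genes or limited to single sites could be missed. The study reported a significant fall of total m6A in these cells after METTL14 knockdown. No member passed an adjusted p of 0.05 by edgeR or by DESeq2, where 0.00436% of all tested genes were called. At an unadjusted p below 0.05, edgeR gave 5 of 66 members, 3 higher and 2 lower, beside 6.34% of all genes, and DESeq2 gave 1 higher and 1 lower. The share of members at this level is close to that of all genes.

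SEMA3C had the smallest unadjusted p among the members with a higher ratio after knockdown. Its ratios were 1.18 and 1.28 in sh-NC against 1.44 and 1.42 in shMETTL14, a log2 difference of 0.22 ± 0.08 (adjusted p = 0.604). SEMA6D went from 1.31 and 1.32 to 1.39 and 1.596, a difference of 0.17 ± 0.07 (adjusted p = 0.716). For both genes the arms did not overlap, but the genes were picked by p from these same ratios, so this adds no support. SEMA3G, with few counts, was at 1.00 and 0.573 against 1.53 and 1.35.

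On the lower side, EPHA2, an Eph receptor, had ratios of 1.12 and 1.19 in sh-NC against 0.776 and 0.901 in shMETTL14. The log2 difference was -0.46 ± 0.16 (adjusted p = 0.604). NTN4 had the largest difference in size, -1.71 ± 0.80 (adjusted p = 0.76), resting on the low counts given above. SEMA3F was next by p, at -0.13 ± 0.10 (adjusted p = 0.867). For abundant members the precision was higher. The difference was -0.03 ± 0.06 for UNC5B, 0.07 ± 0.06 for PLXNB2, 0.01 ± 0.06 for ROBO1, -0.05 ± 0.05 for SLIT3 and -0.06 ± 0.06 for NRP1. The 2 members with the strongest well-counted rises in input, EFNB2 and SEMA6C, were at 0.13 ± 0.15 and 0.29 ± 0.27, and the strongest falls, SEMA5A and PLXND1, at -0.05 ± 0.14 and 0.03 ± 0.07. An adjusted p above the threshold does not show that the ratios of the arms are the same.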

How the data were processed

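Per the labels, poly(A) RNA was fragmented, part was kept as input and the rest was precipitated with an anti-m6A antibody. As deposited, the values are raw read counts for each gene in each library. The submitters' processing notes name Trimmomatic 0.36 and GRCh38, and the aligner, counter, strand setting and use of the molecular identifiers in the kit are not given in the sources used here. Reads of 1 molecule copied by PCR may therefore be counted more than once.

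Counts were fitted over the whole table in R 4.3.3 with edgeR 4.0.16 (filterByExpr, TMM, glmQLFit, glmQLFTest, Benjamini-Hochberg, adjusted p below 0.05). The input comparison used 4 libraries and tested 22245 genes. IP over input and its change used 1 model of 8 libraries with 4 group means and tested 22953. Input CPM use the factors of the first fit and ratios those of the second. The error of a log2 value is its standard error, the value over the square root of F. The fits were tested on simulated data.

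Named are METTL14, called members up to 15 per direction, the leading 2 of each family by level, the 6 highest and 6 lowest ratios, the 3 smallest p per direction for the change, and up to 2 called partners per list. Other genes were named after their values were seen. Members and lists were chosen with earlier results of these data known.

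Between replicates the chi-square per gene was 2.42 to 3.96 on the counts and 1.21 to 1.98 with counts halved for the mates, and all were kept as separate samples. PCR copies, if counted, raise this value too. By the protocol, the IP and input libraries of a culture come from 1 RNA and form pairs. Over 21528 genes the correlation of their deviations was -0.005 (sh-NC) and -0.001 (shMETTL14). The alternatives tried were 2 other filters, RLE factors, library size, DESeq2 1.42.0, a replicate block, genes without exon overlap, the arm effect in the model of 8 libraries, leaving out each culture and, added after seeing the data, halved counts.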

Additional observations from a re-analysis of the deposited data

How the results depend on the processing

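The replicate block kept all 30 calls in input and all 42 in IP over input in each arm, and the counts stayed at 16 and 14, 20 and 22, and 18 and 24 with the block. The same-numbered inputs of the arms did not deviate together (correlation of -0.008). With no filter beyond 1 read, 7 members rose and 6 fell in input, and 13 of 30 calls were kept. Among genes without exon overlap 7 members fell in input and 13 were lower in the IP of sh-NC, where fewer members are tested. DESeq2 kept 24 of 30 input calls. Leaving out 1 culture at a time gave 3 to 16 rises and 7 to 13 falls in input, 14 to 20 higher and 15 to 22 lower ratios in sh-NC, and 13 to 18 and 20 to 24 in shMETTL14. METTL14 then ran from -1.84 to -1.74.

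Of the partners in input, 8 rose and 3 fell with no filter, 11 rose without exon overlap, and single cultures left out gave 7 to 17 rises and 3 to 9 falls. For their IP over input, library size gave 9 enriched genes (sh-NC) and 10 (shMETTL14). Without exon overlap, 9 were enriched and 12 depleted in sh-NC, against 10 and 13 in shMETTL14. The change of the ratio had 0 to 1 partner called lower. Semaphorin and plexin partners had 5 rises with no filter, 4 without exon overlap and 4 to 9 with a culture left out, and 0 to 1 fall.

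Among named genes, 773 of 870 recomputed values kept direction and side, 86 lost their call, 4 gained one and 7 changed sign. The log2 input change of SLIT2 turned to -0.004467 in the model of 8 libraries and ran from -0.3405 to 0.4507 with a culture left out (-0.171 without shMETTL14 replicate 2), that of EFNA1 from -0.00904 to 0.1023 and that of NTNG1 from -0.03905 to 0.1613. The ratio in shMETTL14 ran from -0.3719 to 0.7835 for NTN4 and from -0.1352 to 0.7755 for EPHA6, with the negative values without shMETTL14 replicate 1. The causes were not tested. Every arm has 2 cultures, and NTN4, EPHB1 and EPHA6 have low counts in addition. How much each adds to the error was not separated.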
